A study of Mus musculus and Rattus norvegicus with 79 samples.

Results

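Liver RNA taken at Zeitgeber time (ZT, hours after lights on) 12 was compared with liver RNA taken at ZT10 in mice given a control virus. The members are the 6 libraries whose labels name the GFP virus and one of these hours, 3 at ZT12 and 3 at ZT10, out of 79 samples in the series. All 6 come from Nr3c1fl/fl mice, whose gene for the glucocorticoid receptor (GR) is flanked by recombinase sites and stays intact without CRE. Each mouse had received AAV-tbg-GFP 10 days before it was killed, lived in 12 h of light and 12 h of darkness, was trained to eat at night only, and was unfed at both hours. The tbg promoter is active in hepatocytes, whereas the RNA is of whole liver and so also holds other cell types. In bulk tissue, fewer cells of a type and less RNA per cell cannot be told apart. Beside these libraries stand AAV-tbg-CRE livers of the same strain and the same hours, also unfed, in which CRE acts on Nr3c1 in hepatocytes, and livers of C57BL/6 mice without virus, unfed at ZT13 and taken at ZT10. Each of these groups has 3 libraries too.

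GR is a transcription factor that is activated by corticosterone, the main glucocorticoid of mice, and then binds DNA near its target genes. In night-active rodents corticosterone climbs towards dusk, before the animals begin to eat. The liver clock runs beside it as a loop in which ARNTL and CLOCK activate the Per, Cry and Nr1d genes, whose products repress the activators. In the liver, glucocorticoids are known for inducing genes of glucose output and amino acid breakdown, and insulin after a meal for inducing fatty acid synthesis.

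The ZT12 libraries held 47304829, 34635202 and 74064005 counts, against 55117826, 36550938 and 39620156 at ZT10. A single row, NR_046233, which the gene table used here does not name, took 22.9%, 24.5% and 4.52% of all counts at ZT12, against 23.8%, 27.4% and 28.2% at ZT10. Replicate 3 at ZT12 is thus the one library of the 6 with a low share, and the groups overlap. The means were 17.29 ± 11.09% at ZT12 and 26.46 ± 2.31% at ZT10 (SD, n = 3 each), a difference of -9.16 percentage points with p = 0.2 in a two-sided exact permutation test, where 3 against 3 cannot go below 0.1. In CRE livers the share averaged 5.07 ± 2.02% at ZT12 and 18.36 ± 10.28% at ZT10. The row was left out of library sizes and tests. The labels do not say that the libraries of a group are separate animals, so p-values measure the spread between these samples.

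At ZT12 about as many genes were higher than at ZT10 as were lower. Of 15712 genes tested, 304 were higher (1.93%) and 294 lower (1.87%) with an adjusted p under 0.05, which is what "called" means here (edgeR quasi-likelihood test, Benjamini-Hochberg adjustment over all genes tested). Together these are 3.81% of the genes, and 3100 genes (19.7%) had an unadjusted p under 0.05. Most changes were small. The called genes that rose had a median log2 fold change of 0.56, with 53 of them at least 2-fold and 170 under 1.5-fold. Those that fell had a median of -0.65, with 60 at least 2-fold and 122 under 1.5-fold. The median over all genes tested was -0.004. In 301 of the 304 and in 290 of the 294 the ZT12 and ZT10 libraries did not overlap in CPM (counts-per-million of the matched rows, scaled between libraries). Over all genes tested, every ZT12 library was above every ZT10 library in 13.1%, and below in 11.7%.

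The count of called genes fell whichever library was left out. It was 340, 73 and 445 without replicate 1, 2 or 3 at ZT12, and 226, 397 and 218 without replicate 1, 2 or 3 at ZT10. Each of these fits also has a smaller group, and the part of that in the lower counts was not tested. Genes with an unadjusted p under 0.05 numbered 3100 in the full fit and 2465 without replicate 2 at ZT12. In the other fits without 1 library they numbered between 2624 and 2990. Replicate 2 at ZT12 stands apart. It was the highest of the 3 ZT12 libraries in 194 of the 304 genes that rose (63.8%, against 34.6% of all genes tested) and the lowest in 186 of the 294 that fell (63.3%, against 39.1%). Of the 52 called genes that the naming rule picks, 11 were called without it, and 10 were called in each of the 6 fits that left out 1 library. These 10 were Nr1d1, Fkbp5, Lpin1, Arrdc3, Gm11266, Lonrf3, Tat, Acly, Sc5d and Fgf1.

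**Figure D1:**
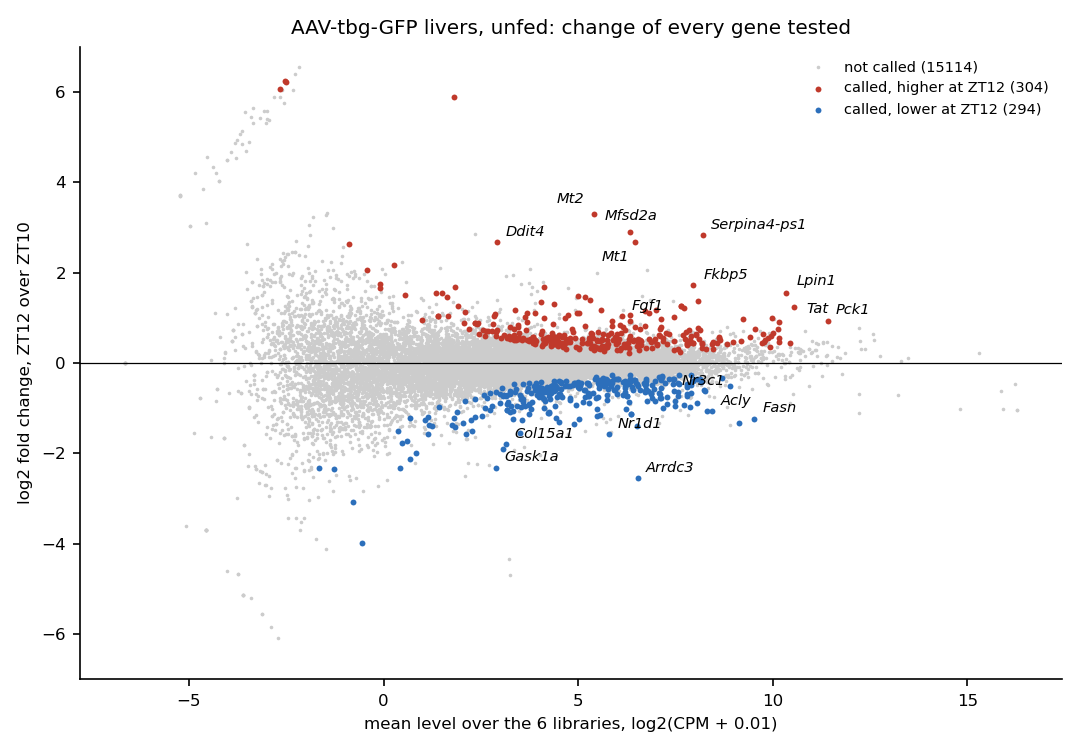
Log2 fold change, ZT12 over ZT10 (vertical axis), against the mean level over the 6 GFP libraries (horizontal axis, log scale), 1 point per gene tested, with red for the 304 genes called higher at ZT12, blue for the 294 called lower and grey for the rest. Points at the far left have few counts, and the large fitted changes there depend on a small number added to counts near 0.

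A list of known GR targets held a larger share of genes called higher than the genes at large, while Nr3c1 itself did not pass the threshold. This list, like the others, was chosen with earlier results of these data known. Nr3c1 had 209.6, 198 and 233 CPM at ZT12, against 241, 196 and 234 CPM at ZT10, with overlapping groups and a log2 fold change of -0.07 ± 0.14 (SE, adjusted p = 0.848). Of 24 tested genes on the list, 9 were called higher and 0 lower, a share of 37.5% beside 3.81% of all genes. Their median log2 fold change was 0.91, beside -0.004 for all genes. In 15 of the 24 every ZT12 library was above every ZT10 library, as in 13.1% of all genes. The count of 9 became 9, 3 and 8 without replicates 1, 2 and 3 at ZT12, and 7, 5 and 4 without replicates 1, 2 and 3 at ZT10.

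Fkbp5, a co-chaperone that holds GR in check in a feedback loop, had 219, 556 and 362 CPM at ZT12, against 111, 105 and 127 CPM at ZT10. The groups do not overlap, and replicate 2 at ZT12 is the highest. Its log2 fold change was 1.73 ± 0.31 (adjusted p = 0.00249). Lpin1, a phosphatidate phosphatase that also acts as a nuclear coactivator of fat oxidation, had 1626, 2429 and 1753 CPM at ZT12, against 725, 627 and 637 CPM at ZT10. Again every ZT12 library lies above every ZT10 library, with a log2 fold change of 1.55 ± 0.23 (adjusted p = 0.00114). Tat, the tyrosine aminotransferase long used as a marker of glucocorticoid action in liver, had 2148, 2550 and 1619 CPM at ZT12, against 951, 901 and 823 CPM at ZT10. Its groups are apart as well, with a log2 fold change of 1.24 ± 0.24 (adjusted p = 0.00389). Fkbp5, Lpin1 and Tat were called whichever library was left out, with adjusted p of at most 0.0435, 0.0136 and 0.0481.

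The metallothioneins Mt1 and Mt2, small proteins that bind zinc and copper, had larger and more uneven changes. Mt1 had 108, 285 and 61.5 CPM at ZT12, against 33.9, 12.3 and 23.6 CPM at ZT10. Mt2 had 39.5, 173 and 20.5 CPM at ZT12, against 12.7, 1.74 and 8.07 CPM at ZT10. Replicate 2 was by far the highest ZT12 library in both. Neither gene's groups overlap, which the rule that named them requires. The log2 fold changes were 2.68 ± 0.62 for Mt1 (adjusted p = 0.0147) and 3.31 ± 0.76 for Mt2 (adjusted p = 0.0138). Without that replicate they were 1.84 (adjusted p = 0.136) and 1.95 (adjusted p = 0.179), no longer called, and neither was called without replicate 2 or 3 at ZT10. As close copies of each other, both genes may share reads.

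Ddit4, an inhibitor of mTORC1, was at low levels, with 7.52, 25.4 and 6.61 CPM at ZT12, against 2.61, 1.94 and 1.25 CPM at ZT10. Its groups do not overlap, and its log2 fold change was 2.68 ± 0.50 (adjusted p = 0.00348, and 0.0534 without replicate 2 at ZT12). Dusp1, a phosphatase of MAP kinases, had 40.7, 44.0 and 55.8 CPM at ZT12, against 26.4, 12.0 and 10.8 CPM at ZT10. It rose by 1.49 ± 0.38 on the log2 scale (adjusted p = 0.0264), but was not called without replicate 2 or 3 at ZT12 or replicate 2 or 3 at ZT10 (adjusted p at most 0.124), nor with the NR_046233 share as a term. Among listed targets that did not pass, Igfbp1, which binds insulin-like growth factors, had a log2 fold change of 2.00 (adjusted p = 0.103). When only these 6 libraries were fitted, Igfbp1 was called (adjusted p = 0.0213), but in no other alternative. Tsc22d3 (GILZ), an anti-inflammatory factor, had a log2 fold change of 0.74 (adjusted p = 0.15) and Per1 of 0.14 (adjusted p = 0.818). Gadd45b, a stress-response gene named after its values were seen, was the 1 list member with every ZT12 library below every ZT10 library. It averaged 0.292 ± 0.167 CPM at ZT12 and 0.784 ± 0.0804 CPM at ZT10 (SD, n = 3 each) (log2 fold change -1.62, adjusted p = 0.225).

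**Figure D2:**
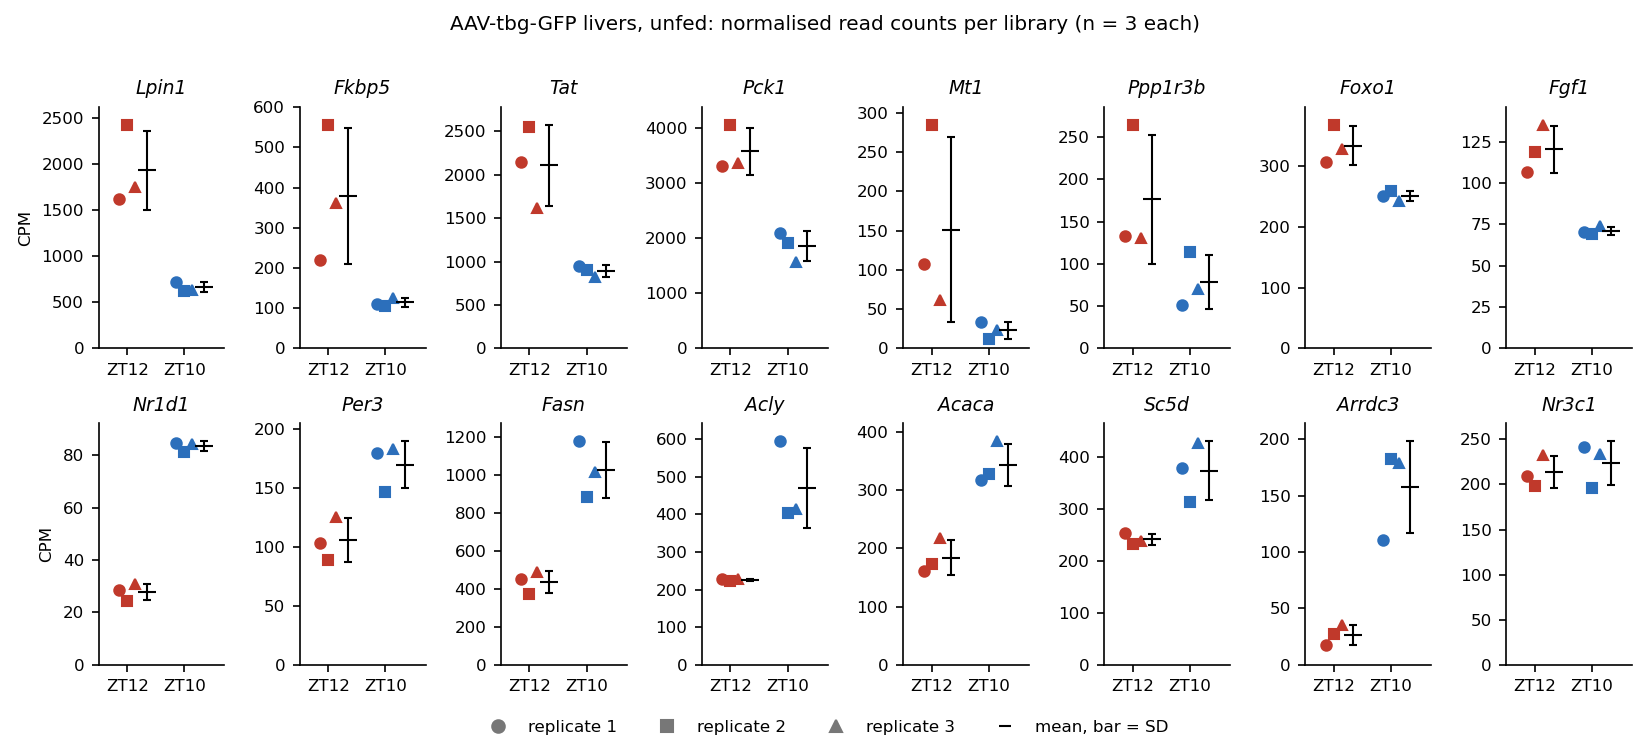
CPM in each of the 6 GFP libraries for selected genes, ZT12 left of ZT10 in each panel, with 1 marker per library and the mean and SD of each group (n = 3). The ZT12 libraries of Fkbp5, Lpin1 and Tat are all above the ZT10 libraries, those of Nr1d1 and Acly all below, and those of Nr3c1 overlap them.

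GR peaks lay within 25 kb of the start in a larger share of the genes that rose than of the genes that fell or of all genes, given here as counts with no test. The authors' list of GR ChIP-seq peaks found in both replicates, deposited with a sample of unfed C57BL/6 liver at ZT10, was set against the transcription starts that RefSeq lists. Which samples those replicates are is not stated, and the series also holds GR ChIP-seq of unfed AAV-tbg-GFP liver at ZT10. Among genes with a mean of at least 5 CPM, a peak centre lay within 25 kb in 105 of 224 genes called higher at ZT12 (46.9%), 52 of 216 called lower (24.1%) and 2028 of all 8263 (24.5%). Within 5 kb the numbers were 48 (21.4%), 21 (9.72%) and 750 (9.08%). Peaks overlapped the promoter in 11 of 242 genes called higher (4.55%), 8 of 236 called lower (3.39%) and 161 of all 12375 genes with a promoter sequence (1.3%). The nearest peak centre lay 0.12 kb from the listed start of Mt1, 0.22 kb from that of Slc25a25, 0.34 kb from Pck1, 2.5 kb from Tat, 7.69 kb from Lpin1 and 25.57 kb from Fkbp5. Among the genes that fell, it lay 0.47 kb from Per3, but 184.53 kb from Nr1d1 and 144.33 kb from Fasn.

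The promoters of Slc25a25, Mt1 and Pck1 are shown because these are the called genes under the naming rule whose start region a GR peak overlaps. They run from 250 bases before to 50 bases after the listed start, 5′ to 3′ on the gene's strand (RefSeq, GRCm38.p6), with the bases under the peak in capitals. Slc25a25 lies on the minus strand at chr2:32424017-32424316 with a peak at chr2:32424181-32424389. Mt1 lies on the plus strand at chr8:94178839-94179138 with a peak at chr8:94178864-94179072, and Pck1 on the plus strand at chr2:173152823-173153122 with a peak at chr2:173152624-173152832.
Slc25a25: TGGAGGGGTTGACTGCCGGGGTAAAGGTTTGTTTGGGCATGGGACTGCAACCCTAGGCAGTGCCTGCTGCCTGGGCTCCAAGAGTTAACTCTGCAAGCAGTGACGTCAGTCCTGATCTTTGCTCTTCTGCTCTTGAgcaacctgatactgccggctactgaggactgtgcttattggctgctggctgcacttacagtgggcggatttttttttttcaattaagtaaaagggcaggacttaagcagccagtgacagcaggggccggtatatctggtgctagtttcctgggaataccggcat
Mt1: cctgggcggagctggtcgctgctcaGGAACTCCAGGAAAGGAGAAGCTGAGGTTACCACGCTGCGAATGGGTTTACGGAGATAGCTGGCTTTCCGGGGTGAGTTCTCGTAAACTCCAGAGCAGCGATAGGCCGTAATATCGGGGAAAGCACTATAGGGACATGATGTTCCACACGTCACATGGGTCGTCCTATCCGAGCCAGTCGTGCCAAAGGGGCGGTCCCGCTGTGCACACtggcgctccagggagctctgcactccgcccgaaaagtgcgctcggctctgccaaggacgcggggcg
Pck1: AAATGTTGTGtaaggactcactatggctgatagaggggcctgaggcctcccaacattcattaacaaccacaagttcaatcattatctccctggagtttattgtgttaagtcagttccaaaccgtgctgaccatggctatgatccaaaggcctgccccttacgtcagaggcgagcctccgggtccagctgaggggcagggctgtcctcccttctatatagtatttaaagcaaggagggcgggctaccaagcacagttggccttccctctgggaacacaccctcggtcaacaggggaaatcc
The peak covers 136 of the 300 bases of Slc25a25, 209 of Mt1 and 10 of Pck1. The Slc25a25 window holds the letters TGACGTCA, the palindrome that cAMP-responsive factors bind, from position -150 counted from the start, all under the peak. The Mt1 window holds TGCACNC, the core letters of a metal response element, from -23 (TGCACAC, under the peak) and from 3 (TGCACTC, outside it). No match to the motifs searched was found in the Pck1 window.

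Motifs were searched on both strands of the same 300-base windows. TGACGTCA was in 7.02% of 242 promoters of genes that rose, 2.54% of 236 of genes that fell and 3.24% of all 12375. TGCACNC was in 34 of the 242 that rose, 51 of the 236 that fell (21.6%) and 1919 of all (15.5%). The full GR element, AGAACA and TGTTCT with any 3 bases between them, was in 0 promoters of either called group and in 2 of all, and TGTTCT, which is also the end of that element, in 17.8%, 17.8% and 16.0%. The E-box CACGTG, which clock activators bind, was in 13.2%, 10.6% and 10.8%. The D-box TTATGTAA, the forkhead motif GTAAACA and the nuclear receptor motif AGGTCA were in 0.826%, 3.72% and 18.2% of promoters of genes that rose, in 0.424%, 3.81% and 20.3% of those of genes that fell and in 0.857%, 3.3% and 15.8% of all. A match describes the letters of a window and is neither a bound site nor a cause.

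**Figure D3:**
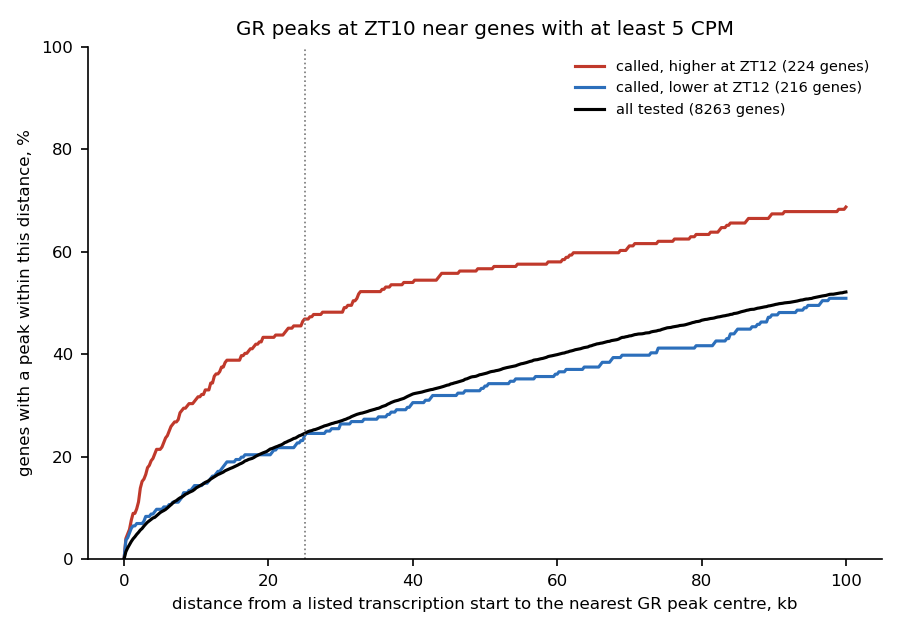
Share of genes (vertical axis, %) whose nearest GR peak centre lies within a given distance of a listed transcription start (horizontal axis, kb), for genes with at least 5 CPM, namely 224 called higher at ZT12, 216 called lower and all 8263 tested. At 25 kb the shares are 46.9%, 24.1% and 24.5%.

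In the core clock, Nr1d1 and Per3 fell and edgeR called no other gene, while DESeq2 also called Arntl and Cry1 higher. Of 17 core clock genes, 0 were called higher and 2 lower (11.8%, beside 3.81% of all genes), with a median log2 fold change of 0.10. Nr1d1, which encodes the repressor REV-ERBα, had 28.4, 24.6 and 30.8 CPM at ZT12, against 84.6, 81.3 and 84.4 CPM at ZT10. The groups are narrow and far apart, and the log2 fold change was -1.57 ± 0.28 (adjusted p = 0.00247, at most 0.0368 with any 1 library left out). Per3, a period gene, had 104, 88.9 and 126 CPM at ZT12, against 179.5, 147 and 183 CPM at ZT10, without overlap. It fell by 0.68 on the log2 scale (SE 0.16, adjusted p = 0.0147) and was not called without replicate 1 or 2 at ZT12 or replicate 1 or 3 at ZT10 (adjusted p at most 0.117).

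Arntl, the activator that the Nr1d1 product represses, had 6.10, 15.5 and 4.44 CPM at ZT12, against 2.97, 5.13 and 4.03 CPM at ZT10. Replicate 2 at ZT12 is the high one, and the groups overlap (log2 fold change 1.03 ± 0.33, adjusted p = 0.0721 in edgeR). It was called with the NR_046233 share as a term, with all rows of a gene summed, without replicate 3 at ZT12 and in DESeq2. Cry1, a repressor of the loop, had 25.4, 34.2 and 22.3 CPM at ZT12, against 19.1, 17.99 and 14.4 CPM at ZT10. Its groups do not overlap, but the change did not pass in edgeR (0.65 ± 0.21, adjusted p = 0.0809). Per1 and Per2 had log2 fold changes of 0.14 and 0.16 (adjusted p = 0.818 and 0.602), and Dbp, a clock output activator, -0.34 (adjusted p = 0.365).

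Of 22 clock output genes, 4 were called higher and 0 lower (18.2%, beside 3.81% of all genes), with a median of 0.04, and 1 was called without replicate 2 at ZT12. Lonrf3, which encodes a RING finger protein, had 21.9, 22.1 and 17.3 CPM at ZT12, against 10.8, 8.32 and 8.83 CPM at ZT10, and the groups do not overlap. Its log2 fold change was 1.11 ± 0.21 (adjusted p = 0.00348, at most 0.0368 with any library left out). Nfil3, a repressor that opposes DBP, had 18.5, 39.9 and 12.8 CPM at ZT12, against 7.77, 9.48 and 10.1 CPM at ZT10. It rose by 1.35 ± 0.31 (adjusted p = 0.014), with replicate 2 at ZT12 far above the others, and was not called without replicate 2 at ZT12 or replicate 1 at ZT10 (adjusted p at most 0.159), nor when only these 6 libraries were fitted. Nampt, the rate-limiting enzyme of NAD salvage, rose by 0.63 ± 0.15 (adjusted p = 0.014), and Tspan4, a tetraspanin, by 0.84 ± 0.22 (adjusted p = 0.0274). Nampt was not called without replicate 2 at ZT12 or replicate 2 or 3 at ZT10, nor Tspan4 without replicate 1 or 2 at ZT12 or replicate 1, 2 or 3 at ZT10 (adjusted p at most 0.0803 and 0.116).

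Of 18 gluconeogenesis genes, 4 rose and 0 fell (22.2%, beside 3.81% of all genes, median log2 fold change 0.39), namely Pck1, Tat, Foxo1 and Slc25a25, and the count was between 1 and 3 whichever library was left out. Pck1, the PEP carboxykinase that commits carbon to glucose, had 3309, 4065 and 3372 CPM at ZT12, against 2103, 1911 and 1578 CPM at ZT10. The groups do not overlap, and the log2 fold change was 0.94 ± 0.25 (adjusted p = 0.028). It was not called without replicate 2 at ZT12 or replicate 1, 2 or 3 at ZT10 (adjusted p at most 0.126). Foxo1, the factor that drives gluconeogenic genes when insulin is low, had 306, 368 and 328 CPM at ZT12, against 252, 259 and 243 CPM at ZT10, without overlap (0.41 ± 0.11, adjusted p = 0.0294). It was not called without replicate 2 at ZT12 or replicate 1 or 3 at ZT10 (adjusted p at most 0.156). Slc25a25, a mitochondrial carrier of ATP-Mg and phosphate, had 349, 270.1 and 262 CPM at ZT12, against 169, 123 and 85.9 CPM at ZT10. Its groups do not overlap (1.22 ± 0.34, adjusted p = 0.0369), but it was called without replicate 1 at ZT10 and in no other fit that left out a library (adjusted p at most 0.16). G6pc, the last enzyme of glucose release, had 347, 299.9 and 371 CPM at ZT12, against 219, 234 and 169.8 CPM at ZT10, again without overlap, and did not pass (0.71 ± 0.36, adjusted p = 0.274). When only these 6 libraries were fitted, G6pc was called (adjusted p = 0.0254), but in no other alternative.

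Ppp1r3b, which brings protein phosphatase to glycogen and so favours glycogen synthesis, was the 1 called gene of 21 on the glycolysis and glycogen list (4.76%, near the 3.81% of all genes, median -0.03). It had 133, 264 and 131 CPM at ZT12, against 51.5, 114 and 69.8 CPM at ZT10. Replicate 2 is the highest library at both hours, and the groups do not overlap (1.17 ± 0.30, adjusted p = 0.0281). It was not called without replicate 2 at ZT12 or replicate 1 or 3 at ZT10, nor when only these 6 libraries were fitted (adjusted p at most 0.224 with a library left out). DESeq2 called 4 genes of this list.

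Of 17 genes of insulin signalling, Foxo1 and Akt1, a kinase that insulin activates, were called higher and Sesn1, a brake on mTORC1, lower (17.6%, beside 3.81% of all genes, median -0.07). Akt1 had 38.5, 53.8 and 44.5 CPM at ZT12, against 34.7, 33.7 and 31.3 CPM at ZT10, without overlap (0.45 ± 0.13, adjusted p = 0.038). Sesn1 had 44.7, 45.2 and 50.2 CPM at ZT12, against 66.2, 56.4 and 58.9 CPM at ZT10, also without overlap (-0.37 ± 0.10, adjusted p = 0.0369). None of the 3 was called without replicate 2 at ZT12 or without replicate 1 or 3 at ZT10. Akt1 was also lost without replicate 3 at ZT12 or replicate 2 at ZT10, with upper-quartile scaling and when only these 6 libraries were fitted. Sesn1 was also lost without replicate 1 at ZT12 and with no filter on low counts.

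Of 20 fatty acid synthesis genes, 4 fell and 1, Lpin1, rose, beside calls in 3.81% of all genes. The median log2 fold change was -0.58 (-0.37 without replicate 1 at ZT10), and 14 of the 20 had a negative change. Lpin1 stands on the list for its step in triglyceride synthesis and is no enzyme of fatty acid synthesis itself. Fasn, the fatty acid synthase, had 450.3, 371 and 487 CPM at ZT12, against 1176, 884 and 1016 CPM at ZT10. The groups are well apart, with a log2 fold change of -1.23 ± 0.28 (adjusted p = 0.0119). Acly, which makes cytosolic acetyl-CoA from citrate, had 228, 223 and 228 CPM at ZT12, against 594, 404 and 415 CPM at ZT10. The ZT12 libraries are nearly equal and all lower (-1.06 ± 0.20, adjusted p = 0.00444, at most 0.0448 with any library left out).

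Acaca, the acetyl-CoA carboxylase that commits carbon to the pathway, had 161, 174 and 219 CPM at ZT12, against 318, 328 and 384 CPM at ZT10, again without overlap (-0.90 ± 0.20, adjusted p = 0.0119). Acss2, which makes acetyl-CoA from acetate, is named after its values were seen, to complete the 4. It averaged 159 ± 35.8 CPM at ZT12 and 310.2 ± 120.3 CPM at ZT10 (SD, n = 3 each), with overlapping groups (-0.97 ± 0.23, adjusted p = 0.0156). Fasn was not called without replicate 2 at ZT12 or replicate 1 at ZT10, nor Acaca without replicate 1 or 2 at ZT12 or replicate 3 at ZT10 (adjusted p at most 0.0847 and 0.0758). The list's count of 5 was 2 without replicate 2 at ZT12 and 3 without replicate 1 or 3 at ZT10. Srebf1, the factor that drives these genes, had 242, 208 and 231 CPM at ZT12, against 334, 252 and 327 CPM at ZT10. All 3 ZT12 libraries are lower, but the change did not pass (-0.42 ± 0.19, adjusted p = 0.193).

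Of 23 cholesterol synthesis genes, Sc5d, a sterol desaturase of the last steps, was the 1 called (4.35%, near the 3.81% of all genes). The median was -0.34, and 11 of the 23 had every ZT12 library below every ZT10 library, as did 11.7% of all genes. Sc5d had 254, 233 and 239.6 CPM at ZT12, against 379, 315 and 428 CPM at ZT10. It fell by 0.63 on the log2 scale (SE 0.10, adjusted p = 0.00156) without overlap, and was called whichever library was left out (adjusted p at most 0.025). Hmgcs1, which makes HMG-CoA, had 118, 125 and 148 CPM at ZT12, against 210.4, 207 and 259 CPM at ZT10, apart but not past the threshold (-0.79 ± 0.28, adjusted p = 0.0987). When only these 6 libraries were fitted, 7 genes of the list were called.

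Fatty acid oxidation and ketogenesis were read from 22 genes, of which 0 were called by edgeR (3.81% of all genes) and 2 by DESeq2. In edgeR 11 of the 22 had an unadjusted p under 0.05, beside 19.7% of all genes. The median was 0.33, and 15 of the 22 had every ZT12 library above every ZT10 library, as did 13.1% of all genes. Acadvl, which oxidises very long chains, had the smallest p among them, with 190.4, 197 and 223 CPM at ZT12, against 160.2, 147 and 164 CPM at ZT10 (0.37 ± 0.12, adjusted p = 0.0635). When only these 6 libraries were fitted, 4 were called.

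Of 16 acute phase genes, made in hepatocytes and secreted to the blood, 3 rose and 0 fell (18.8%, beside 3.81% of all genes), with a median log2 fold change of 0.69 (0.30 without replicate 2 at ZT12) and a positive change in all 16. Hp, haptoglobin, had 1170, 1901 and 976 CPM at ZT12, against 660.3, 733 and 631 CPM at ZT10, without overlap (1.00 ± 0.24, adjusted p = 0.017). Saa4, a constitutive serum amyloid A, had 173, 366 and 163 CPM at ZT12, against 107, 121 and 119.6 CPM at ZT10, also apart (1.02 ± 0.23, adjusted p = 0.0136). Itih4, an inter-alpha-trypsin inhibitor chain, had 1361, 1825 and 1060 CPM at ZT12, against 818, 829 and 887 CPM at ZT10 (0.75 ± 0.19, adjusted p = 0.0215). Replicate 2 at ZT12 is the highest library for all 3, and without it none was called (adjusted p = 0.161, 0.177 and 0.167 for Hp, Saa4 and Itih4), as was the case without replicate 1 at ZT10. Saa4 was not called either when only these 6 libraries were fitted, nor Hp without replicate 3 and Itih4 without replicate 2 or 3 at ZT10. Without replicate 3 at ZT12 or in DESeq2 the list had 7 called genes. Summed over 9 hepatocyte markers, the level was 76300, 90200 and 75500 CPM at ZT12, against 74900, 63000 and 72400 CPM at ZT10, highest in the same replicate. The sums of both hours do not overlap, and their part in these changes was not tested.

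Of 18 genes of liver-secreted hormones and growth factors, 2 rose and 0 fell (11.1%, beside 3.81% of all genes, median 0.23). Fgf1, a growth factor known to lower blood glucose in mice, had 107, 119 and 135 CPM at ZT12, against 70.7, 69.3 and 73.9 CPM at ZT10. Its groups do not overlap (0.76 ± 0.16, adjusted p = 0.0103, at most 0.0499 with any library left out). Fetub, fetuin B, had 425, 486 and 329 CPM at ZT12, against 277, 293 and 327 CPM at ZT10, apart by a narrow margin (0.47 ± 0.11, adjusted p = 0.0165). It was not called without replicate 1 or 2 at ZT12 or replicate 1 at ZT10 (adjusted p at most 0.14), nor when only these 6 libraries were fitted.

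Of 22 genes of amino acid breakdown and the urea cycle, Tat and Aass rose and 0 fell (9.09%, beside 3.81% of all genes, median 0.29). Tat is also counted on the GR target and gluconeogenesis lists. Aass, the first enzyme of lysine breakdown, had 1002, 807 and 596 CPM at ZT12, against 561, 329 and 324 CPM at ZT10, without overlap (0.99 ± 0.24, adjusted p = 0.0175). It was not called without replicate 1 or 2 at ZT12 or replicate 2 or 3 at ZT10 (adjusted p at most 0.1). Of 20 ribosome biogenesis genes, 4 rose and 0 fell (20.0%, beside 3.81% of all genes, median 0.33), and 12 of the 20 had every ZT12 library above every ZT10 library, as did 13.1% of all genes. Polr1a, the large subunit of RNA polymerase I, had 59.8, 62.3 and 52.7 CPM at ZT12, against 33.4, 45.1 and 42.4 CPM at ZT10, without overlap (0.53 ± 0.11, adjusted p = 0.00896), and was not called without replicate 2 at ZT12 or replicate 1 at ZT10 (adjusted p at most 0.063). Rrp12, a factor of ribosome assembly, had a log2 fold change of 0.84, Nop14 of 0.42 and Npm1, nucleophosmin, of 0.32 (adjusted p = 0.0355, 0.0434 and 0.0355). With upper-quartile scaling 2 genes of the list were called, without Nop14 and Npm1. Rrp12, Nop14 and Npm1 were not called when only these 6 libraries were fitted, nor Npm1 with the NR_046233 share as a term. Rrp12 and Nop14 were also lost with all counts halved. The fits without 1 library called 1 or 2 genes of the list.

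Hsph1, a chaperone of the HSP110 family, was the 1 called gene of 17 on the heat shock list (5.88%, near the 3.81% of all genes, median 0.26), where DESeq2 called 3. It had 46.9, 31.0 and 29.7 CPM at ZT12, against 13.3, 22.9 and 15.8 CPM at ZT10, without overlap (1.06 ± 0.29, adjusted p = 0.0377), and was not called without replicate 1 or 2 at ZT12 or replicate 1 or 3 at ZT10 (adjusted p at most 0.163). A positive change was found in 15 of the 17, and an unadjusted p under 0.05 in edgeR in 8, beside 19.7% of all genes. In 6 every ZT12 library was above every ZT10 library, as in 13.1% of all genes. Among 3 cold-inducible genes, 22 of the unfolded protein response, 14 of bile acid metabolism and transport, 16 immediate early and cAMP genes and 14 of drug metabolism, 0 were called by edgeR and 1, of drug metabolism, by DESeq2. In edgeR 1, 1, 4, 3 and 4 genes of these lists, in the order named, had an unadjusted p under 0.05, beside 19.7% of all genes. In drug metabolism 13 of the 14 had a positive change, with a median of 0.33. The other 4 lists had medians of -0.09, 0.04, -0.08 and 0.28.

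**Figure D4:**
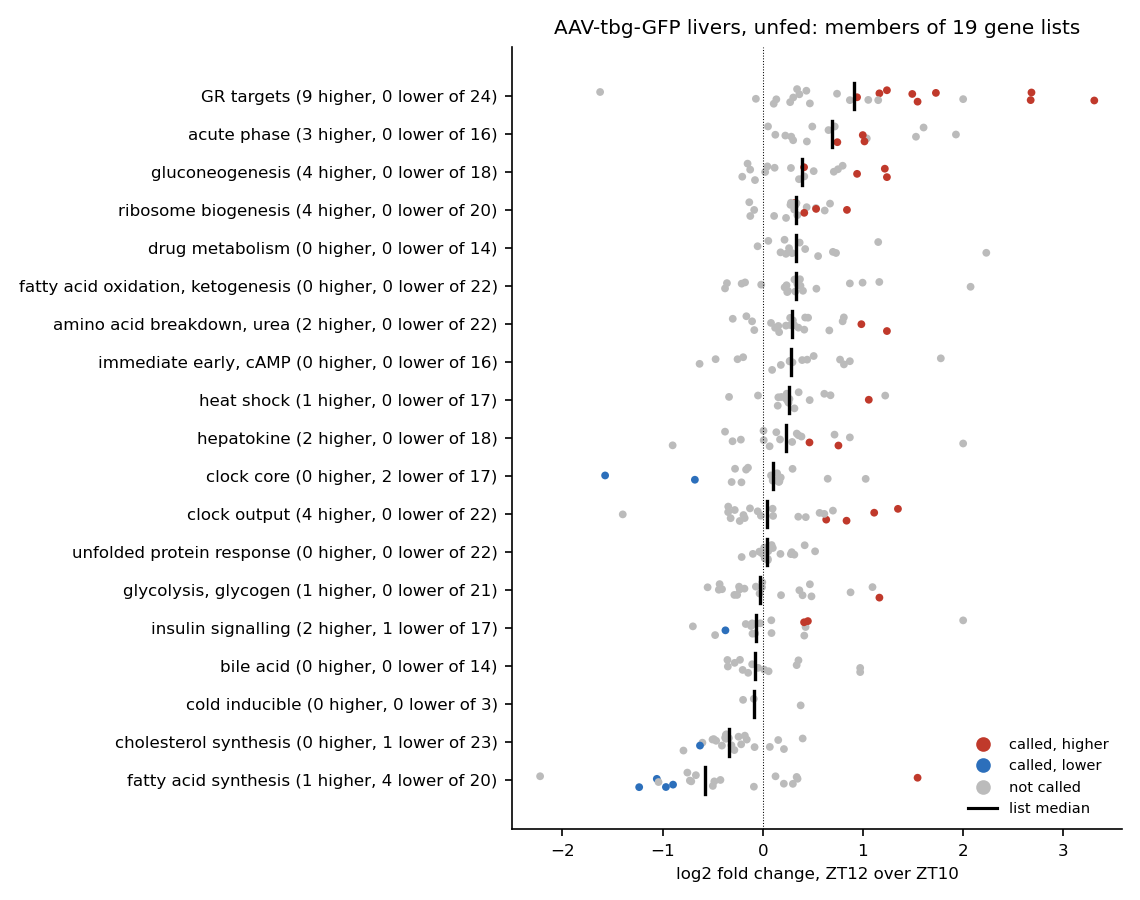
Log2 fold change, ZT12 over ZT10, of the tested members of each gene list in GFP livers, with 1 point per gene, colour for the call and a bar at the list median. The GR target list has the highest median of the lists drawn (0.91) and the fatty acid synthesis list the lowest (-0.58).

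Among called genes with a mean of at least 5 CPM and no overlap, the large changes also took in genes on none of the pathway lists. Mfsd2a, a transporter of lysophospholipids, had 155, 133 and 137 CPM at ZT12, against 35.0, 6.97 and 13.7 CPM at ZT10. It rose by 2.89 ± 0.78 (adjusted p = 0.0332), and was called without replicate 1 at ZT10 but neither in another fit that left out a library nor with the NR_046233 share as a term. Serpina4-ps1, a pseudogene that may share reads with its relatives, had 479, 455 and 621 CPM at ZT12, against 64.9, 74.1 and 79.9 CPM at ZT10. Its groups are tight and far apart (2.83 ± 0.80, adjusted p = 0.0418), but it was called in none of the fits without 1 library (adjusted p between 0.0674 and 0.126). Plin4, a lipid droplet protein, had 19.9, 36.8 and 23.2 CPM at ZT12, against 6.77, 13.3 and 4.99 CPM at ZT10 (1.68 ± 0.35, adjusted p = 0.00798). Its groups are apart too, and it was not called without replicate 2 at ZT12 or replicate 3 at ZT10 (adjusted p at most 0.067).

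Eif4ebp3, a repressor of cap-dependent translation, had 37.3, 66.8 and 56.0 CPM at ZT12, against 22.7, 15.6 and 19.3 CPM at ZT10 (1.46 ± 0.29, adjusted p = 0.0058, and 0.0559 without replicate 2 at ZT12). Il1r1, the interleukin-1 receptor, had 234, 612 and 317 CPM at ZT12, against 191, 102 and 153 CPM at ZT10 (1.38 ± 0.33, adjusted p = 0.017). It was not called without replicate 2 at ZT12 or replicate 2 or 3 at ZT10 (adjusted p at most 0.165). AA986860 rose by 1.39 ± 0.34 (adjusted p = 0.0198, and 0.118 without replicate 2 at ZT12). Fam107a lies under the limit of 5 CPM and is named after its values were seen. It had 3.11, 15.1 and 2.37 CPM at ZT12, against 0.119, 0.194 and 0 CPM at ZT10, and 0.252, 0.149 and 0.185 CPM in CRE livers at ZT12. Every GFP library at ZT12 is above all the others named, and ZT12 against ZT10 had an adjusted p of 0.00114 in GFP livers. In C57BL/6 livers it had 22.8, 14.1 and 16.3 CPM at ZT13, against 0.175, 0.376 and 0.389 CPM at ZT10. The difference between its GFP and CRE changes did not pass (adjusted p = 0.837).

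Arrdc3, an arrestin-domain protein, had the most negative change of the 12 genes named for falling, with 17.4, 27.2 and 35.4 CPM at ZT12, against 111, 183 and 179 CPM at ZT10. Its groups are far apart (-2.55 ± 0.49, adjusted p = 0.0042, at most 0.0435 with any library left out). Gm11266, a predicted gene of no stated role, had 18.5, 13.1 and 18.6 CPM at ZT12, against 42.8, 34.2 and 52.4 CPM at ZT10 (-1.35 ± 0.21, adjusted p = 0.00114, at most 0.0152). Gask1a had 3.11, 1.75 and 2.42 CPM at ZT12, against 13.5, 13.5 and 9.79 CPM at ZT10 (-2.32 ± 0.47, adjusted p = 0.00599, and 0.053 without replicate 2 at ZT12). In each of the 3 every ZT12 library lies below every ZT10 library, which the rule that named them requires.

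Col15a1, a collagen of basement membranes, had a log2 fold change of -1.80 ± 0.42 (adjusted p = 0.0151) and Reck, a membrane inhibitor of matrix metalloproteinases, -1.27 ± 0.32 (adjusted p = 0.0233). Zfp991, Cdh18, Nlrp5-ps, Arhgap21, E230016M11Rik and Gm32511 had log2 fold changes between -1.90 (Zfp991) and -1.24 (Gm32511). None of these 8 was called without replicate 2 at ZT12, where their adjusted p lay between 0.0578 (Zfp991) and 0.135 (Cdh18). Arhgap21 was called in none of the 6 fits without 1 library, and its log2 fold change ranged between -1.60 and -0.56 over the alternatives. Arhgap21 and Cdh18 were also lost when only these 6 libraries were fitted and with the NR_046233 share as a term. Nr3c2, the mineralocorticoid receptor, which also binds corticosterone, had 157, 116 and 166 CPM at ZT12, against 304, 239 and 292 CPM at ZT10. The groups do not overlap and it was called (-0.93 ± 0.26, adjusted p = 0.0423), but in none of the 6 fits without 1 library (adjusted p between 0.0535 and 0.188). Hsd11b1, which regenerates active glucocorticoid in hepatocytes, did not pass (0.16 ± 0.13, adjusted p = 0.519).

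Markers of 11 cell types or states were read in the same libraries, and 0 of them were called by edgeR. In edgeR an unadjusted p under 0.05 was found for 4 of 9 hepatocyte, 3 of 10 endothelial, 1 of 9 stellate and 1 of 8 lymphoid markers. The share over all genes was 19.7%. DESeq2 called 2 hepatocyte markers. Alb, serum albumin, averaged 43450 ± 5678 CPM at ZT12 and 37340 ± 5391 CPM at ZT10 (SD, n = 3 each), so hepatocyte RNA was plain in both groups. The 9 hepatocyte markers, whose sums are given with the acute phase genes, all had positive changes (median 0.29). In 4 of them every ZT12 library was above every ZT10 library, as in 13.1% of all genes. The 11 Kupffer cell markers summed to 194, 342 and 198 CPM at ZT12, against 257, 264 and 281 CPM at ZT10. Replicate 2 at ZT12 is the highest of the 6 libraries there, and the other ZT12 libraries are the lowest. The 9 stellate cell markers summed to 300, 276 and 311 CPM at ZT12, against 347, 386 and 325 CPM at ZT10, without overlap. All 9 had a negative change, and in 5 every ZT12 library was below every ZT10 library, as in 11.7% of all genes. The part of these lower stellate sums in the fall of Col15a1 and Reck was not tested. Endothelial markers summed to 616, 659 and 635 CPM at ZT12, against 556, 599 and 629 CPM at ZT10, and red blood cell markers to 75.7, 88.0 and 79.8 CPM at ZT12, against 73.8, 105 and 86.7 CPM at ZT10, with overlapping groups in both. Bile duct, lymphoid, neutrophil, pancreas, fat and proliferation markers each summed to under 30 CPM in all 6 libraries, with overlapping groups. Among the lymphoid markers Nkg7 was at 0 in all ZT10 libraries and averaged only 0.232 ± 0.171 CPM at ZT12 (SD, n = 3, adjusted p = 0.234 in edgeR). Of the 8 lymphoid markers, 2 had a positive and 6 a negative change. In 1 every ZT12 library was above every ZT10 library, and in 1 below.

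The same hours in CRE livers gave 87 genes higher (0.554%) and 191 lower (1.22%), together 1.77% of those tested, from libraries that the GFP comparison does not share. Nr3c1, the gene that CRE acts on, had 103, 126 and 113 CPM in CRE livers at ZT12, against 115, 137 and 147 CPM in CRE livers at ZT10. Of the 304 genes called higher in GFP livers, 24 were called higher in CRE livers (7.89% of the 304 and 27.6% of the 87) and 0 lower, and 278 had a positive change (91.4%). Of the 294 called lower, 76 were called lower (25.9% of the 294 and 39.8% of the 191) and 0 higher, and 283 had a negative change (96.3%). The medians in CRE livers were 0.27 for the 304 and -0.41 for the 294. In the GFP libraries that chose these genes they were 0.56 and -0.65. A test of the difference between the changes in GFP and CRE livers called 0 of 15712 genes in edgeR, with 643 at an unadjusted p under 0.05 (4.09%), and 1 gene, Lpin1, in DESeq2. By edgeR no gene was thus shown to change differently between GFP and CRE livers.

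Lpin1 had 122, 127 and 93.0 CPM in CRE livers at ZT12, against 101, 123 and 148 CPM in CRE livers at ZT10. These groups overlap and lie far under the GFP levels given above. The change in GFP livers minus that in CRE livers was 1.67 ± 0.32 on the log2 scale, with an adjusted p of 0.25 in edgeR and 0.00202 in DESeq2. Fkbp5 had 69.6, 73.2 and 58.9 CPM in CRE livers at ZT12, against 49.6, 35.0 and 37.0 CPM in CRE livers at ZT10, a log2 fold change of 0.74 (adjusted p = 0.207). Pck1 rose in CRE livers too, with 2030, 1977 and 2027 CPM in CRE livers at ZT12, against 859, 787 and 947 CPM in CRE livers at ZT10 (log2 fold change 1.22, adjusted p = 0.00793), and so did Lonrf3 (0.99, adjusted p = 0.00715). Nr1d1 had -0.93 in CRE livers (adjusted p = 0.0657), Fasn -0.13 (adjusted p = 0.862) and Sc5d -0.03 (adjusted p = 0.944). Of the 24 GR targets, Pck1 was the 1 called higher in CRE livers, and the list's median there was 0.43. Among the other targets called in GFP livers, Mt2, Mt1 and Ddit4 had log2 fold changes of 2.30, 1.74 and 1.27 in CRE livers. Tat had 0.67 there, Ppp1r3b 0.56, Dusp1 -0.004 and Lpin1 -0.12.

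In C57BL/6 livers, unfed at ZT13 against ZT10, read by polyA libraries, 1436 genes were higher (9.74%) and 1345 lower (9.12%), together 18.9% of those tested, with 31.4% at an unadjusted p under 0.05. Of the 301 genes called higher in GFP livers that were tested there, 139 were called higher (45.7% of the 304 and 9.68% of the 1436) and 0 lower, and 253 had a positive change (84.1%). Of the 290 called lower that were tested, 164 were called lower (55.8% of the 294 and 12.2% of the 1345) and 1 higher, and 262 had a negative change (90.3%). Of the 24 GR targets, 20 were called higher there, with a median of 1.56. Lpin1 had 1810, 2090 and 1720 CPM at ZT13, against 209, 345 and 376 CPM at ZT10. Nr1d1 had 26.8, 20.8 and 20.5 CPM at ZT13, against 102, 88.7 and 177 CPM at ZT10. Neither gene's groups overlap, and the log2 fold changes were 2.60 and -2.43. Of the acute phase genes 3 were called higher and 3 lower there, with a median of 0.09.

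**Figure D5:**
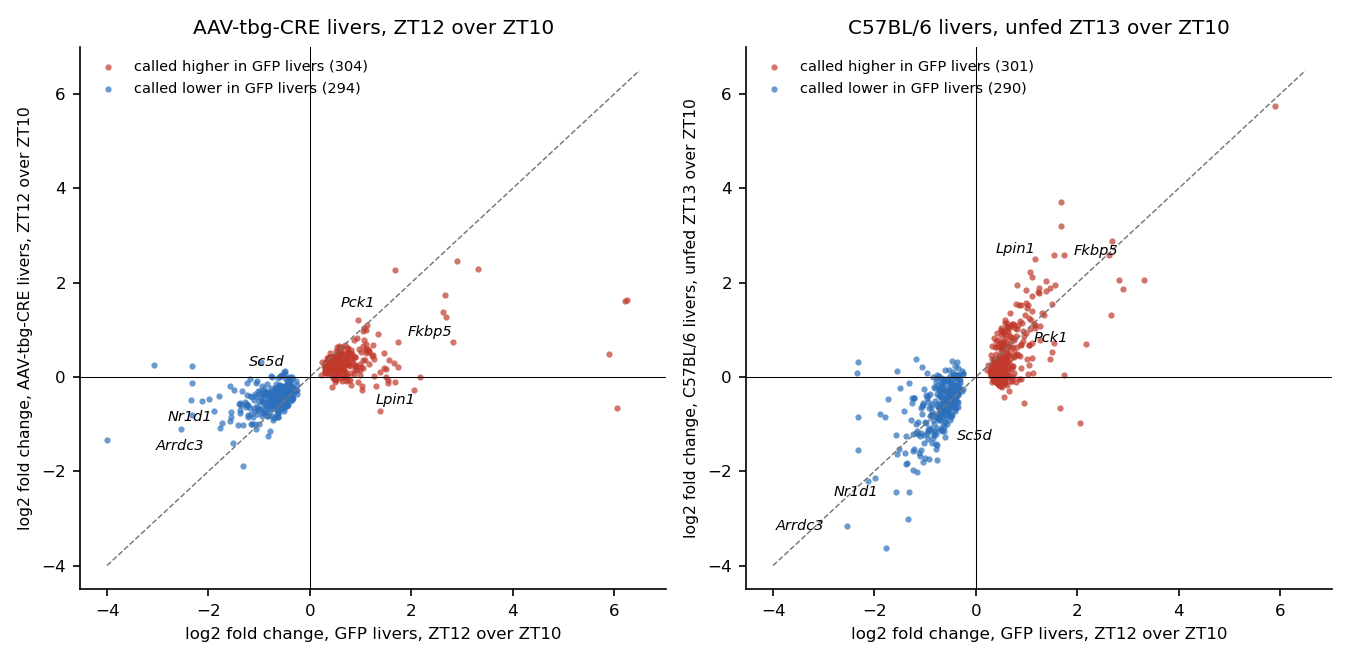
Log2 fold change of the genes called in GFP livers (ZT12 over ZT10, horizontal axis) against that in AAV-tbg-CRE livers at the same hours and in C57BL/6 livers, unfed at ZT13 over ZT10 (vertical axes), with red for genes called higher in GFP livers and blue for those called lower. The medians in CRE livers are 0.27 and -0.41 for these genes, and 0.31 and -0.52 in C57BL/6 livers.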

How the data were processed

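The authors deposited raw counts per RefSeq transcript row from ribosome-depleted (Nr3c1fl/fl) or polyA (C57BL/6) libraries. The labels' protocols give about 5 mg of liver and 1000 ng of RNA. STAR, HOMER, DESeq2 and mm10 are named in the submitters' processing notes, with no version given. The sources used here do not give the strand used in counting, and overlapping and antisense genes cannot be told apart. Of 40458 rows, 40219 matched the GRCm38.p6 gene table (24790 genes). The row with the highest total stood for each of the 7581 genes with several rows.

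Counts of all 36 Nr3c1fl/fl libraries (12 groups of 3) were fitted together with edgeR 4.0.16 in R 4.3.3 (filterByExpr, TMM scaling, quasi-likelihood F-test, Benjamini-Hochberg adjustment, threshold 0.05), with group as the only term. The 27 C57BL/6 libraries had a fit of their own. CPM uses TMM-scaled totals of matched rows, and a standard error is the log2 fold change over the root of F. DESeq2 1.42.0, other scalings, no filter, a fit of the 6 libraries alone, a replicate term, the NR_046233 share as a term and leaving out each library were tried, and the script was tested on simulated counts. Total counts per GFP library ran between 34635202 and 74064005. Peak starts, whose base is not stated, were read as counted from 0.

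The members and lists were chosen with earlier results of these data known. The lists share members, so their counts are not independent. Tat, Pck1, Foxo1, Lpin1 and Ppp1r3b, all called, each stand on several lists. Named genes were a fixed set, up to 12 called genes in each direction with the largest fold change (at least 5 CPM, no overlap), and up to 4 genes per list with the smallest p. The figures and permutation test used Python 3.11.15, pandas 2.3.3 and SciPy 1.17.1.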

Additional observations from a re-analysis of the deposited data

How the results depend on the processing

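Against 598 called genes, DESeq2 called 930 (466 higher, 464 lower), and fits without 1 library called between 73 and 445. Upper-quartile scaling called 582, with 237 higher and 345 lower (40.7% higher, against 50.8% as reported), and moved the median of all genes to -0.027. No filter gave 499, the fit of the 6 libraries alone 605, of which it shares 165 of the 304 and 199 of the 294, summing all rows of a gene 656, and the NR_046233 share as a term 699 (308 higher, 391 lower), of which it shares 222 of the 304 and 247 of the 294. Among row counts of 1 to 10, the even share ran between 77.25% (replicate 3 at ZT12) and 85.07% (replicate 3 at ZT10) in the 6 GFP libraries. Whether reads were counted in pairs was not tested. Counts halved, an alternative chosen after seeing the data, gave 495. With the replicate number as a block 632 genes were called. Same-numbered libraries did not deviate together (correlations of 0.018, 0.009 and -0.076 for numbers 1, 2 and 3). These values show no pairing by number, but deviations from means of 3 libraries cannot exclude it. The test of GFP against CRE changes called 0 genes in the other fits run and 1 in DESeq2. Among the 152 named genes, no called value changed its sign in the alternatives run. The signs of the other genes were not compared. Precision is limited by 3 libraries a group, by replicate 2 at ZT12, and by the NR_046233 row, which took over 20% of the counts in all GFP ZT10 libraries, so a comparison without such libraries could not be run. Without replicate 3 at ZT12 all 5 remaining libraries are above 20%, with 445 genes called.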
